A study of Mus musculus with 10 samples.

Results

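In lung DNA of 10 mice, 1863 windows of 1000 bp had lower methylation in every ovalbumin-exposed mouse than in any saline mouse. They were chosen on these values from 412413 windows of chromosomes 1 to 19 with at least 20 CpG calls in all 10 mice, out of 446336 windows in all. The rule required the highest of the 7 exposed mice to lie below the lowest saline mouse, and both exposed groups to average at least 15 percentage points below saline. Without the requirement of 15 points, 19702 windows (4.78% of those eligible) had all 7 exposed mice below all saline mice. Windows start every 500 bp, so neighbours overlap, and the 1863 losing windows merged into 1201 regions. Because the rule used the contrast of exposed and saline mice, all values of that contrast are descriptions here and carry no test.

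The mice were young adult females of the BALB/c strain with no engineered allele named in the labels, which describe the saline mice as wild type. The 3 saline mice were the control. The 3 OVA and 4 Herb mice were sensitized by intraperitoneal injection of ovalbumin (OVA), an egg protein used as an allergen, in an aluminium adjuvant, and were then challenged with it through the nose. Herb mice also received by mouth an ethanol extract of Descurainia sophia seeds (DSE), while OVA mice received the vehicle, so allergen exposure is what the 2 groups share. Saline mice are described as injected with saline only, and whether they received the adjuvant or the oral vehicle is not given in the sources used here. The assay, SureSelect Methyl-seq, enriches chosen genomic regions with RNA baits before bisulfite turns unmethylated cytosines into uracil, and a methylation level is the percentage of CpG calls read as methylated.

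CpG methylation of distal elements and promoters differs between cell types, and low methylation is typical of the elements a cell type uses. Leukocytes carry low methylation at genes such as Ptprc, which encodes the surface phosphatase CD45, and PU.1 and RUNX proteins are transcription factors that bind many leukocyte elements. Allergen challenge of a sensitized lung is known for drawing in eosinophils, lymphocytes and other leukocytes. In whole-lung DNA, a shift in the mix of cells and a change of methylation within cells cannot be told apart. No marker expression was analysed here, so the lung label was not checked in that way.

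The losing windows were rich in short letter strings that PU.1 (GAGGAAGT) and RUNX (TGTGGTT) proteins are known to bind. Stretches around such strings are shown first, picked from leukocyte genes and genes of eosinophils and macrophages. Losing windows of genes that mark all leukocytes held either string no more often (46.2%) than losing windows as a whole (51.3%). Capitals mark the string, which reads ACTTCCTC or AACCACA where it lies on the minus strand. All stretches are 100 bases of the plus strand of GRCm38 (mm10), lie outside RefSeq exons and come from the reference strain, C57BL/6J, not from the BALB/c mice studied. The sites are chr11:11691843-11691942, chr11:11763231-11763330 and chr11:11766223-11766322 for introns of Ikzf1, chr16:92821759-92821858 for an intron of Runx1, chr3:136087172-136087271 for an intron of Bank1, chr16:10524876-10524975 for an intron of Ciita, chr2:84967496-84967595 upstream of Prg2 and chr17:57344422-57344521 upstream of Adgre1. The last stretch runs past the end of its window, which ends at position 57344500.
Ikzf1 5′ intron: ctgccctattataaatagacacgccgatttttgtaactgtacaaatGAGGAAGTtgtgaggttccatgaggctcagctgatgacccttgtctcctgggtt
Ikzf1 3′ intron: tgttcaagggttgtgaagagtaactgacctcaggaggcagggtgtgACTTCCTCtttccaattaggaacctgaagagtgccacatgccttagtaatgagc
Ikzf1 far 3′ intron: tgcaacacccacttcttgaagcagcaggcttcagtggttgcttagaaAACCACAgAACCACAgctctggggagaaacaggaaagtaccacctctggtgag
Runx1 intron: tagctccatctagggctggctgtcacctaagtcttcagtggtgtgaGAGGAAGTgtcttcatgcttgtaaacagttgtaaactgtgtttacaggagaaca
Bank1 intron: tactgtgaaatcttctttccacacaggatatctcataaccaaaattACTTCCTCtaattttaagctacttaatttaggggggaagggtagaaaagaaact
Ciita intron: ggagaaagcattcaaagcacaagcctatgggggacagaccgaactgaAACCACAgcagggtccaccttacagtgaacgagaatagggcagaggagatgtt
Prg2 upstream: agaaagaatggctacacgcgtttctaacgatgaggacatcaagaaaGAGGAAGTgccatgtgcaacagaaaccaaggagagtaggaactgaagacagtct
Adgre1 upstream: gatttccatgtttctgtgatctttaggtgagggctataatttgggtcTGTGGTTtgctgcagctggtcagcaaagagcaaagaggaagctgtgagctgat

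The measured bases are the CpGs, marked by capitals in stretches of 120 bases chosen as the most CpG-dense exon-free part of 4 losing windows. They lie at chr11:11766130-11766249 (Ikzf1), chr1:138174839-138174958 (Ptprc), chr2:91097112-91097231 (Spi1, the gene of PU.1) and chr11:87756655-87756774 (Mir142, a microRNA gene of blood cells), again on the plus strand of GRCm38. The Ikzf1 window holds 1 CpG in the reference, so its calls rest on that site unless the BALB/c genome differs, and the Mir142 window holds 27.
Ikzf1 CpG: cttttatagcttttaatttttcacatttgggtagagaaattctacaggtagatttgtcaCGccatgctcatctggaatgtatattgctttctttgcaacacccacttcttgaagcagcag
Ptprc CpGs: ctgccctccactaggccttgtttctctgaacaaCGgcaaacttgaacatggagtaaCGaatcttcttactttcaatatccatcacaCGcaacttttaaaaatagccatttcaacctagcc
Spi1 CpGs: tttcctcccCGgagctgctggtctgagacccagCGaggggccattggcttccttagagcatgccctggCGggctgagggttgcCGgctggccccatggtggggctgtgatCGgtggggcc
Mir142 CpGs: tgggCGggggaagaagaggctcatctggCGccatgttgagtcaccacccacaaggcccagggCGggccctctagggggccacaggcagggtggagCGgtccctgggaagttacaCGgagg

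Averaged over the 1863 losing windows, methylation was 71.5%, 72.4% and 69.5% in the saline mice. It was 55.2%, 51.1% and 50.6% in the OVA mice, and 54.5%, 51.3%, 53.8% and 50.1% in the Herb mice. Group means were 71.1% ± 1.46 (SD, n = 3), 52.3% ± 2.50 (n = 3) and 52.4% ± 2.07 (n = 4). OVA and Herb mice spanned nearly the same range. The rule held both groups at least 15 points below saline, so windows where Herb mice lay near saline could not enter. This likeness therefore does not show whether the extract had an effect. Over all eligible windows the same mice averaged 50.9% to 52.8%, so in saline lungs the losing windows stood above the average and in exposed lungs close to it.

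**Figure D1:**
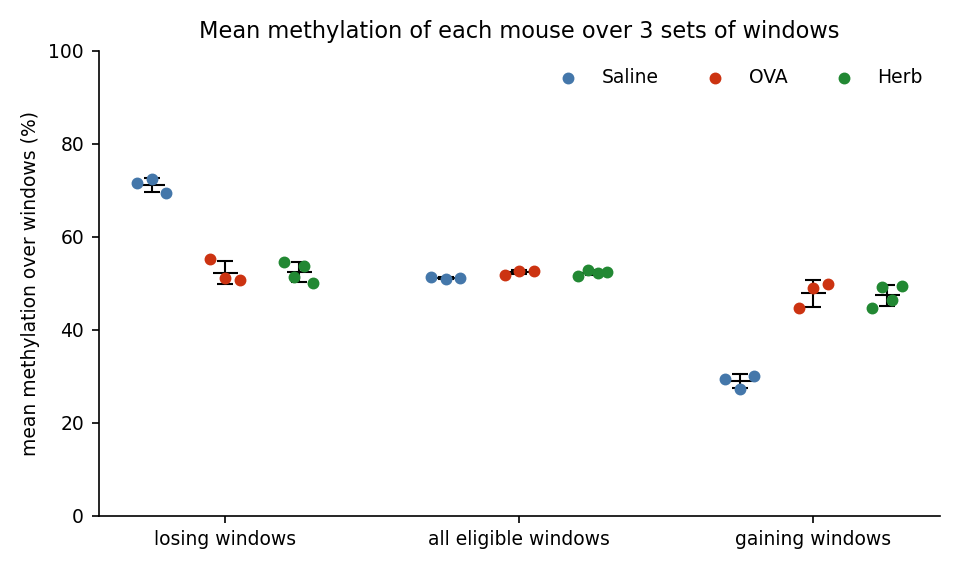
Mean methylation (%) of each mouse (points) over the 1863 losing windows, all eligible windows and the 2362 windows that gained methylation under the mirror rule, with group mean and SD (bars). Saline mice sit at 69.5% to 72.4% over the losing windows and the 7 exposed mice at 50.1% to 55.2%, while the groups lie within 50.9% to 52.8% over all eligible windows.

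The plot of methylation by mouse shows the mirror set beside the losing windows. Under the mirror rule 2362 windows gained methylation in all exposed mice. Their saline level was low, 28.9% ± 1.43 (SD, n = 3), where that of the losing windows was high. Losing windows made up 0.452% of the eligible windows and gaining windows 0.573%.

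Losses were partial at nearly every window. The drop, the saline mean minus the mean of the 7 exposed mice, had a median of 18.1 percentage points and reached 35.1. Only 468 windows (25.1%) dropped by over 20 points. Saline means ran from 29.9% to 97.1% with a median of 71.7%, and 1788 windows (96.0%) had a saline mean of 50 to 90%. The exposed mean fell under 50% at 722 windows and under 20% at 10.

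The gap between the lowest saline and the highest exposed mouse had a median of 8.42 points. It was over 10 points at 597 windows and under 1 point at 41. Saline replicate 3 was the lowest saline mouse at 994 of the 1863 windows, and OVA replicate 1 was the highest exposed mouse at 634. Without saline replicate 3 the rule found 2917 windows. At the threshold of 15 points, the 3 members just inside lay near Pax9, in Etv6 and in E2f2, and the 3 windows just outside lay at the promoter of Cd200r1 and in introns of Dnal1 and Rap1gap2. At all 6 the smaller of the differences of OVA and Herb from saline rounded to 15 points.

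The shallowest mouse had a median of 255 calls at a losing window, compared with 339 over all eligible windows. Losing windows were 0.508% of the windows whose shallowest mouse had 20 to 49 calls and 0.329% of those with at least 500. The median drop was 21.0 points in the shallowest class and 17.3 in the deepest. Of the 1863 windows, 175 held exactly the calls of the losing window before them, because all their called CpGs lay in the shared 500 bp. Total calls per mouse were 306656737 to 410836272, and most calls enter 2 windows. Relative depth in exposed against saline mice had a median log2 ratio of 0.05 at losing windows and 0.02 at all eligible windows. This ratio joins OVA and Herb mice, which differed in depth. Losing windows held 0.288% to 0.304% of the eligible calls in Herb mice, 0.257% to 0.271% in OVA mice and 0.272% to 0.277% in saline mice. The bearing of this on the contrast of Herb and OVA mice was not tested.

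The windows around the losing windows were described next. From each region the window with the largest drop was taken, and the eligible windows around it were averaged by mouse. At that window saline mice averaged 71.3% ± 1.46 (SD, n = 3) and OVA and Herb mice 52.3% ± 2.50 (n = 3) and 52.4% ± 2.07 (n = 4). At 1000 bp upstream on the chromosome, where no base is shared, the means were 57.8%, 51.5% and 51.5% over 590 windows. At 2000 bp upstream the means were 49.5%, 47.3% and 46.7% over 337 windows, and the drop averaged 2.54 points. The central windows were picked for their drop and the flanking sets hold fewer windows, so the levels along this distance are a description of the chosen windows.

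**Figure D2:**
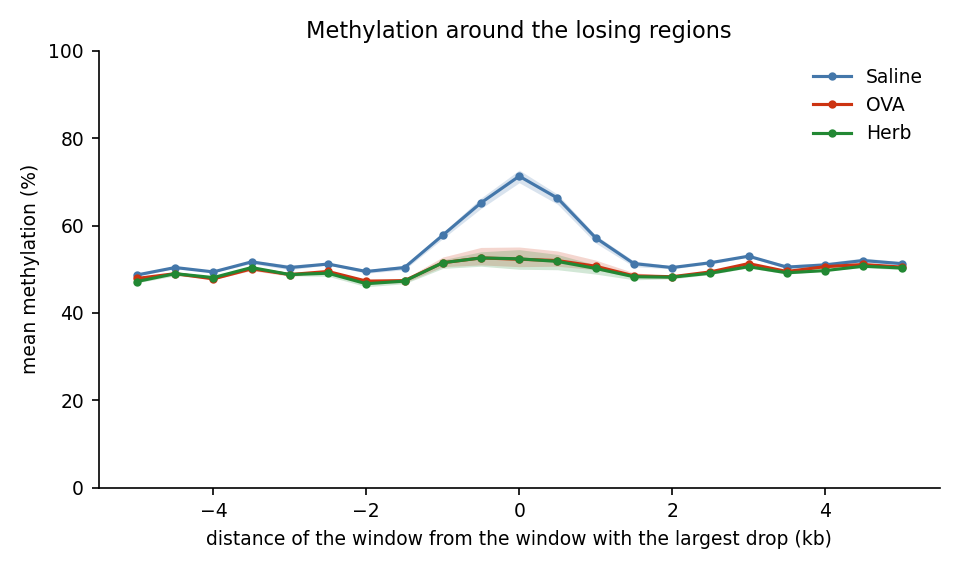
Mean methylation (%) of each group (lines, with the lowest and highest mouse as shading) by distance in kb from the window with the largest drop in each of 1201 regions, over the eligible windows found at each distance. The central windows were chosen for a large drop, and there saline mice average 71.3%, while the OVA and Herb lines stay between 46.7% and 52.6% at all distances.

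Introns held 791 of the losing windows (42.5%), intergenic sequence 670 (36.0%), promoters 211 (11.3%) and exons 191 (10.3%). A promoter was any window within 1000 bp of a RefSeq transcription start site (TSS), and exons came next in order. Among all eligible windows the shares were 30.1%, 36.5%, 19.7% and 13.7%. Many promoters are unmethylated and cannot lose 15 points. Of the eligible windows with a saline mean of 50 to 90%, only 7.29% were promoters, and 1.39% of these promoter windows lost methylation compared with 1.07% of introns, 0.794% of intergenic windows and 0.566% of exons. The gaining windows had 8.72% in promoters and 46.0% in introns. Of the eligible windows with a saline mean of 10 to 55%, nearer their own, 17.4% were promoters and 31.8% introns.

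The median distance of a losing window from the nearest TSS was 15885 bp. Losing windows under 1000 bp from a TSS numbered 147, which was 0.235% of all eligible windows there. With a saline mean of 50 to 90% they were 140 of 7961 (1.76%). In the latter class the share was 0.920% at 20000 to 50000 bp and 0.524% beyond 100000 bp. The losing windows held a median of 11 CpGs and 45.8% GC, against 13 and 47.4% over all eligible windows. Just 1 of them passed the usual criteria of a CpG island, over 50% GC and an observed to expected CpG ratio over 0.6, compared with 0.279% of the eligible windows with a saline mean of 50 to 90% and 6.85% of all eligible windows, many of which are unmethylated. Repeats and low-complexity sequence covered a median of 19.6% of a losing window and 16.0% of an eligible one. None of the 1863 overlapped the 1006 enhancers that RefSeq lists on these chromosomes, which 0.322% of the eligible windows with a saline mean of 50 to 90% did. By chromosome, the losing share ran from 0.263% on chromosome 8 to 0.750% on chromosome 16.

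Genes that mark all leukocytes had the highest losing share of 13 gene lists. A window counted for a gene when it lay in its body or promoter, or else had its TSS as the nearest within 50 kb. The pan-leukocyte list had 39 losing windows in 22 regions among 818 eligible windows (4.77%, beside 0.452% of all eligible windows). They belonged to 12 of the 25 genes with windows. These were Cd37, Cd44, Cd48, Dock2, Fyb, Ikzf1, Inpp5d, Lcp1, Lcp2, Ptpn6, Ptprc and Runx1, which encode surface proteins, signalling adaptors, phosphatases and transcription factors of blood cells. Gaining windows were 7 of the 818 (0.856%, beside 0.573%), at Cd37, Dock2, Runx1 and Runx3. Genes of the list did not all go the same way. At Runx3, 0 of 77 windows lost and 3 gained methylation, and the median difference of exposed from saline mice was 4.36 points. At Dock2 that median was 3.72 points, and only 24 of 93 windows were lower in exposed mice. Over the whole list 57.7% of windows were lower, beside 37.2% of all eligible windows. Among windows with a saline mean of 50 to 90% the list's losing share was 8.19%, compared with 0.897% of all such windows.

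The median difference of exposed from saline mice over the list was -1.45 points, beside 0.755 points over all eligible windows and -0.549 points over the neutrophil list. Over its 779 remaining windows, mice of the saline group averaged 52.9% to 53.5%, OVA mice 51.8% to 52.1% and Herb mice 51.0% to 52.0%. The exposed groups did not overlap saline there, while over all 410550 other eligible windows they were higher than saline, with 50.8% to 51.3% in saline, 51.8% to 52.7% in OVA and 51.6% to 52.8% in Herb mice. The neutrophil list showed the same order over its 173 remaining windows, with 50.9% to 51.1% in saline, 49.3% to 50.5% in OVA and 49.1% to 50.3% in Herb mice. The other lists of leukocyte types did not. Their saline, OVA and Herb means were 46.4%, 47.6% and 48.1% for cytotoxic and natural killer genes. B cell and plasma cell genes had 50.7%, 52.0% and 51.6%, and T cell and Th2 genes 55.4%, 55.8% and 56.1%. Eosinophil, mast cell and basophil genes had 52.5%, 53.3% and 52.5%, and macrophage and dendritic cell genes 47.7%, 48.0% and 47.9%. The remaining windows of a list still include those that drop by under 15 points. They also include neighbours that overlap a losing window and share calls with it, so they are not independent of the chosen windows.

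**Figure D3:**
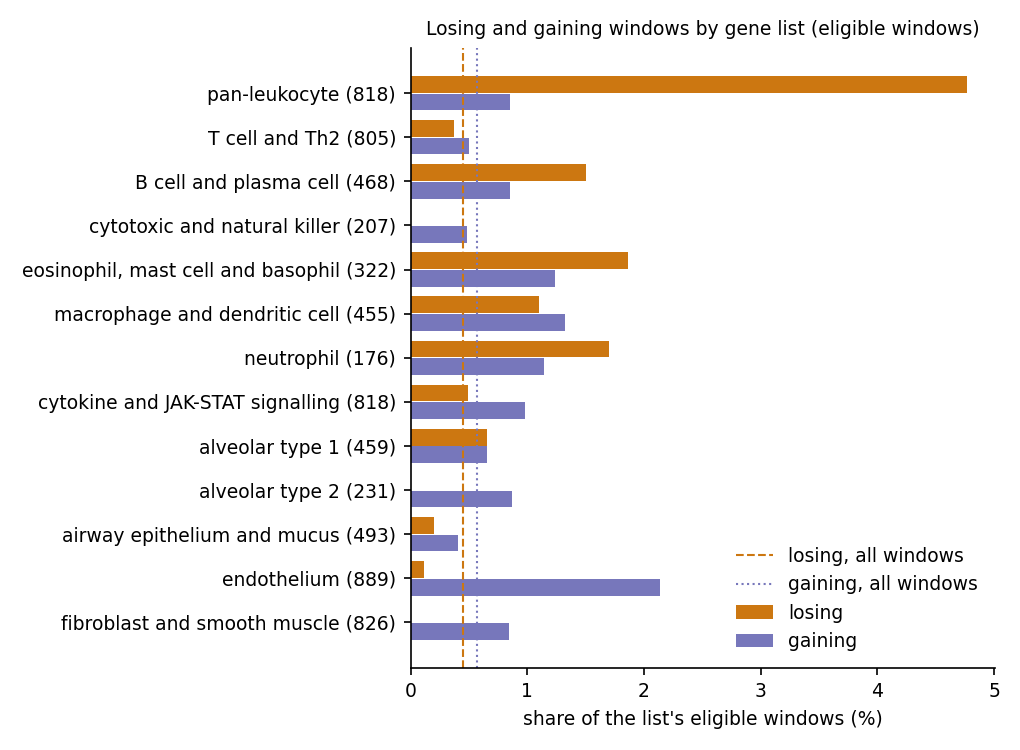
Share (%) of each list's eligible windows, whose number stands in parentheses, that lost or gained methylation in all exposed mice (bars), with the shares over all eligible windows as vertical lines. The pan-leukocyte list has 4.77% losing windows, and the endothelium list 0.112% losing and 2.14% gaining windows.

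The lists of single leukocyte types had fewer losing windows. The eosinophil, mast cell and basophil list had 6 of 322 (1.86%), at Csf2rb, Hdc and Prg2. Neutrophil genes had 3 of 176 (1.70%), and B cell and plasma cell genes had 7 of 468 (1.5%), at Bach2, Bank1, Cd74, Ciita, Fcmr and Tnfrsf13b. Macrophage and dendritic cell genes had 5 of 455 (1.1%), at Adgre1, Itgax and Spi1. T cell and Th2 genes had 3 of 805 (0.373%), at Il4 and Lef1, and cytotoxic and natural killer genes had 0 of 207. Cytokine and JAK-STAT genes had 4 of 818 (0.489%), at Il6ra and Socs1. Gaining windows outnumbered losing ones for macrophage and dendritic cell genes (6, 1.32%) and for T cell and Th2 genes (4, 0.497%). They also did for cytotoxic and natural killer genes (1, 0.483%) and cytokine and JAK-STAT genes (8, 0.978%). They were fewer for eosinophil, mast cell and basophil (4, 1.24%), B cell and plasma cell (4, 0.855%) and neutrophil genes (2, 1.14%). Among all eligible windows 0.573% gained.

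The lists of resident lung cells lay on both sides of the 0.452% of all eligible windows. Alveolar type 1 genes had 3 losing windows of 459 (0.654%), at Ahnak and Vegfa, and airway epithelium and mucus genes 1 of 493 (0.203%), at Ehf. Endothelial genes had 1 of 889 (0.112%), at Fli1, which leukocytes also use, and 19 gaining windows (2.14%, beside 0.573% of all eligible windows) at 10 genes. Fibroblast and smooth muscle genes had 0 of 826, and alveolar type 2 genes 0 of only 231. Mean methylation over all windows of the endothelial list was 45.1% to 46.7% in saline mice, 47.7% to 49.3% in OVA mice and 47.6% to 49.2% in Herb mice. Their part in the losses was not tested.

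The gene with the most losing windows was Ikzf1, which encodes Ikaros, a zinc finger transcription factor of lymphocyte development. On chromosome 11 (11685925 to 11772926, plus strand), 9 of its 60 eligible windows in 5 regions lost methylation. Of the 60, 47 (78.3%) were lower in the exposed mice, beside 37.2% of all eligible windows. The gene was picked for its number of losing windows, which raises this share. Both windows that hold the first start site had low methylation in all mice, 5.39% to 11.2% in the one and 0.681% to 2.86% in the other. The first losing window lay 1.57 kb past that start site, at 11687001 to 11688000. There the saline mice had 74.0%, 70.9% and 72.2%, the OVA mice 53.5%, 53.8% and 50.2%, and the Herb mice 56.3%, 45.9%, 61.7% and 50.9%, at 1470 calls or more in every mouse. No exposed mouse reached the saline range.

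The largest Ikzf1 drop, 23.8 points, was at the single CpG shown above, in the intronic windows at 11765501 to 11767000. Saline mice had 81.1%, 72.3% and 78.8% there, OVA mice 56.7%, 49% and 49.3%, and Herb mice 48.6%, 53.3%, 65.9% and 52.3%, with 74 calls in the shallowest mouse. Herb replicate 3 lay closest to the saline mice, 6.41 points under the lowest. Both overlapping windows carried these same calls, so the 2 windows count 1 measurement.

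**Figure D4:**
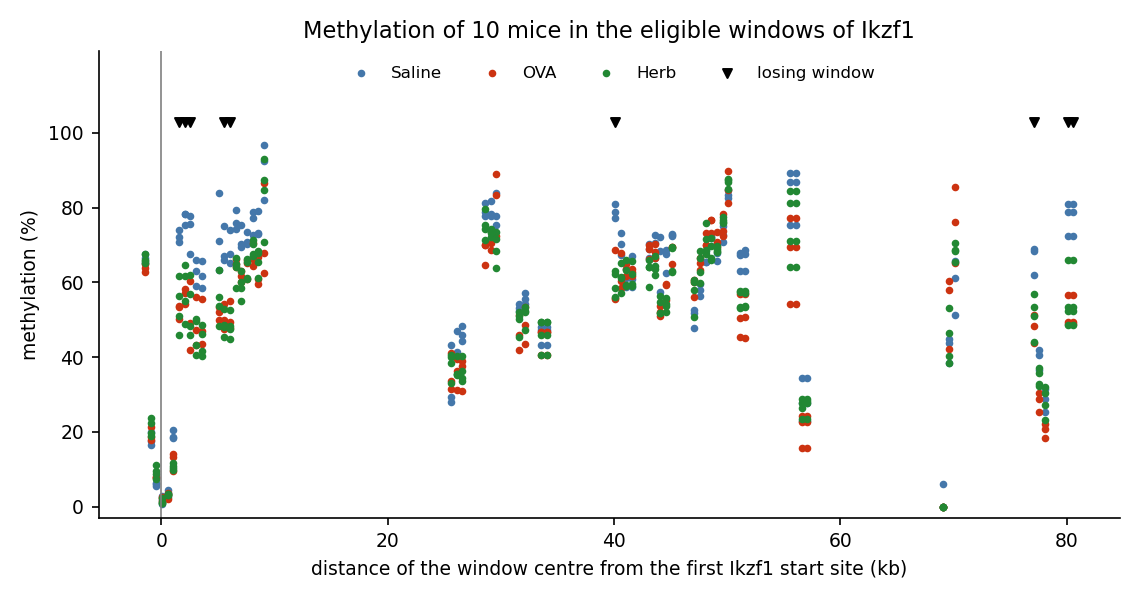
Methylation (%) of the 10 mice (points) in the 60 eligible windows of Ikzf1 by distance in kb from its first start site, with the 9 losing windows marked by triangles. The losing windows lie from 1.57 to 80.6 kb past the start site, and the 2 windows that hold the start site lie between 0.681% and 11.2% in all mice.

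Ptprc (CD45) had 4 losing windows in 2 regions among 24. At its promoter window (chromosome 1, 138174001 to 138175000, 624 calls or more) the saline mice had 72.8%, 68.9% and 79.5%. The OVA mice had 53.6%, 46.2% and 52.0%, and the Herb mice 51.5%, 51.1%, 56.5% and 46.9%. The groups were 12.3 points apart at their closest mice.

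At Runx1, a transcription factor of blood stem cells and lymphocytes, 6 of 107 windows lost methylation and 2 gained it. Its window with the largest drop, in an intron 4074 bp past a start site (chromosome 16, 92821501 to 92822500), had 61.9%, 67.8% and 63.1% in saline, 52.2%, 42.2% and 40.4% in OVA and 40.9%, 45.1%, 48.1% and 40.3% in Herb mice. It holds the PU.1 string shown above. At Cd44, an adhesion receptor of activated leukocytes, the only losing window lay 12335 bp upstream of the TSS, with 55%, 67.8% and 64.9% in saline mice. The OVA mice had 31.0%, 19.7% and 32.3%, and the Herb mice 48.5%, 47.7%, 52.9% and 31.6%. Herb replicate 4 lay among the OVA mice and the other Herb mice lay between OVA and saline.

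Other genes were named by their number of losing windows, after the values were seen. Fnbp1, which shapes membranes in endocytosis, and Mrtfa, a coactivator of serum response factor, had 7 each. With 6 each followed Arhgap15, Klf3, Klhl6, Ksr1, Mbnl1, Pmaip1, Runx1 and Sgip1. At Klhl6, known from B cells, these were 6 of only 16 eligible windows, with means of 78.9% in saline, 60.4% in OVA and 60.4% in Herb mice. In all, 989 genes had a losing window, 144 had at least 3, and 169 windows belonged to no gene by this assignment.

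The regions with the most losing windows had 5 each and spanned 3000 bp. One lay in an intron of Fnbp1 (chromosome 2, 31060501 to 31063500), the other in intergenic sequence of chromosome 1 (144306501 to 144309500), where Rgs1, a regulator of G protein signalling in lymphocytes, was the nearest gene at 57896 bp or more. At the Fnbp1 window with the largest drop, the saline mice had 85.8%, 86.2% and 82.1%, the OVA mice 64.4%, 57.9% and 59.3%, and the Herb mice 69.1%, 56.3%, 57.3% and 58.0%. At the first of the windows near Rgs1 the values were 72.6%, 75.3% and 73.3% in saline, 57.2%, 47.3% and 51.4% in OVA and 59.9%, 60.3%, 55.3% and 53.1% in Herb mice.

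Of the 8 promoter windows with the largest drops, the first 4 lay at Cdkl4, a kinase gene, and at Gm41611, AI662270 and 5031439G07Rik, with drops of 27.8 to 35.1 points. The other 4 lay at Arhgap25, Ptpn22, Mir142 and Myo1g, which are on none of the 13 lists. The window 364 bp upstream of Mir142 had 69.9%, 77.6% and 73.0% in saline mice at 478 calls or more. The OVA mice had 60.1%, 43.2% and 49.6% there, and the Herb mice 46.0%, 48.1%, 50.9% and 40.5%. At Myo1g, an unconventional myosin of blood cells, the window 542 bp upstream of the TSS had means of 65.4%, 40.9% and 40.0% in saline, OVA and Herb mice. At Ptpn22, a lymphocyte phosphatase, the means were 70.0%, 43.2% and 45.7%, and at Arhgap25, a Rac regulator of phagocytes, 68.9%, 41.5% and 44.7%.

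At Spi1, the promoter window 800 bp past the TSS (chromosome 2, 91097001 to 91098000) had 77.6%, 81.7% and 70.6% in saline mice. The OVA mice had 59.6%, 55% and 57.6%, and the Herb mice 52.3%, 48.4%, 66.7% and 55.4%. Herb replicate 3 was again the closest to saline. Spi1 also had 3 gaining windows among its 34.

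Among eosinophil and mast cell genes, Prg2 encodes the major basic protein of eosinophil granules. Its losing window 12961 bp upstream had 61.4%, 57.0% and 54.5% in saline mice, 35.6%, 46.2% and 36.1% in OVA mice and 43.7%, 41.3%, 48.9% and 36.3% in Herb mice. Hdc, the histamine-forming enzyme, had 73.4%, 73.4% and 71.6% in saline against means of 52.2% ± 3.73 (SD, n = 3) in OVA and 55.4% ± 2.48 (n = 4) in Herb mice, at 1270 calls or more. Csf2rb, the shared receptor chain of interleukins 3 and 5 and GM-CSF, had means of 64.3%, 48.4% and 47.5%.

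Il4, the Th2 cytokine, had 2 overlapping losing windows among 25. At the one with the larger drop, intergenic at chromosome 11, 53609501 to 53610500, the saline mice had 74.8%, 73.0% and 69.2%, the OVA mice 61.8%, 44.8% and 50.5%, and the Herb mice 55.2%, 51.7%, 57.2% and 51.2%. Depth was 1128 calls or more. The window at Socs1, an inhibitor of cytokine signalling, had means of 64.5%, 46.2% and 48.1%, and that at Il6ra, the interleukin 6 receptor, 69.9%, 48.8% and 51.3%.

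In the B cell and macrophage lists the named windows dropped by 17.7 to 21.4 points. Ciita, the switch of MHC class II genes, had means of 68.2%, 45.3% and 48.0% in saline, OVA and Herb mice. Itgax (CD11c) had 60.1%, 40.2% and 41.0%. Vegfa, a growth factor of vessels on the alveolar type 1 list, had 78.9%, 57.6% and 62.2% at a window 13123 bp upstream, with 728 calls or more.

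All 12 of the largest drops had fewer calls in the shallowest mouse than the median losing window. The largest, in an intron of R74862 on chromosome 7 (143023501 to 143024500), had 80.9%, 100% and 61.4% in saline mice, 51.1%, 51.5% and 51.9% in OVA mice and 45.1%, 36.4%, 40.9% and 42.7% in Herb mice. Its shallowest mouse had 21 calls and the window holds 4 CpGs. The promoter window of Cdkl4 (chromosome 17, 80564501 to 80565500, 26 calls or more) had means of 76.9% in saline, 38.7% in OVA and 44.2% in Herb mice. At these windows the saline mice themselves spread over 20 points.

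The deepest of the 12 had saline mice closer together than that, but so did some shallow ones. At Sgms1, with 27 calls in the shallowest mouse, the saline mice had 85.7%, 87.0% and 82.4%. The window 2331 bp upstream of Nedd4, a ubiquitin ligase (chromosome 9, 72659501 to 72660500, 123 calls or more), had 71.1%, 73.4% and 76.9% in saline mice. It had 40.1%, 52.0% and 41.5% in OVA mice and 45.2%, 38.5%, 51.7% and 41.6% in Herb mice, a gap of 19.2 points. The window upstream of Gm41611 (chromosome 17, 70965501 to 70966500, 218 calls or more) had 90.9%, 90.4% and 85.4% in saline, and its exposed mice lay between 49.7% and 65.6%. The rest of the 12, at Chsy1, Sgms1, Dusp1, E230029C05Rik, AI662270, 5031439G07Rik, Igip and Gm3716, dropped by 27.6 to 32.5 points.

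The shares of short strings differed between losing and gaining windows. PU.1 letters (GAGGAAGT, both strands) were present in 365 losing windows (19.6%), in 7.40% of all eligible windows and in 5.76% of the gaining windows. RUNX letters (TGTGGTT) were in 732 (39.3%), 21.6% and 20%. AP-1 letters (TGANTCA) were in 33.8%, 25.7% and 24.8%. FOXA letters (TGTTTAC), known from epithelial elements, showed the opposite order, with 9.39% of losing, 13.1% of all and 23.4% of gaining windows. Eligible windows with a saline mean of 50 to 90%, the range of the losing windows, had 7.49% for PU.1, 23.2% for RUNX, 27.6% for AP-1 and 13.1% for FOXA. Those with a saline mean of 10 to 55%, nearer that of the gaining windows, had 14.7% for FOXA. A match is a description of the sequence, and neighbouring strings can share end letters.

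**Figure D5:**
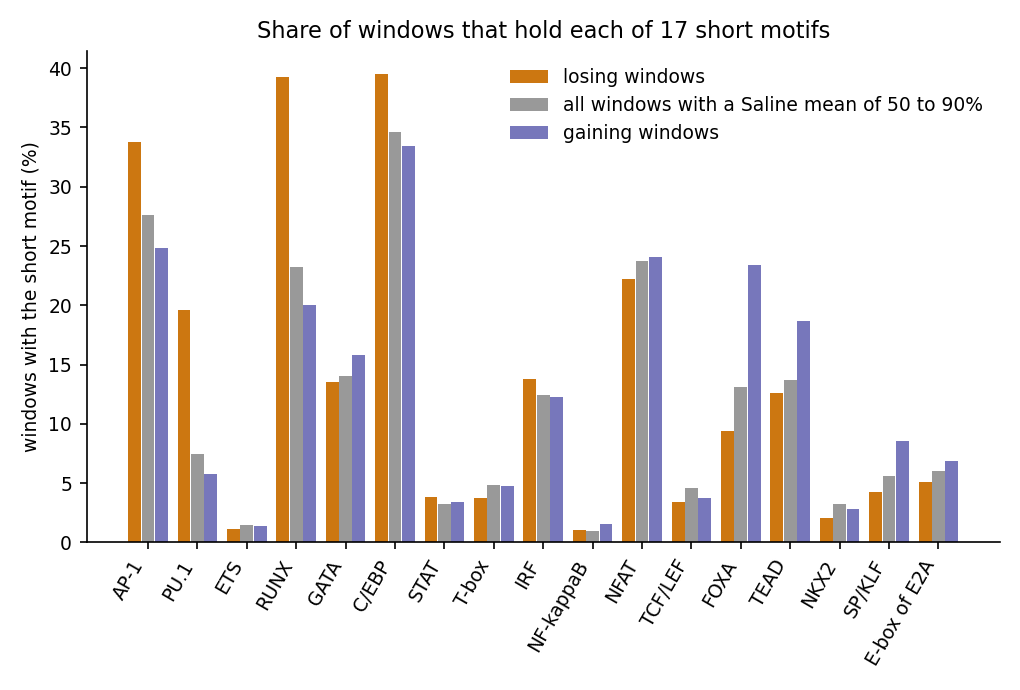
Share (%) of losing windows, of all eligible windows with a saline mean of 50 to 90% and of gaining windows (bars) that hold each of 17 short motifs on either strand. Losing windows stand at 19.6% for PU.1 and 39.3% for RUNX beside 7.49% and 23.2%, and gaining windows stand at 23.4% for FOXA beside 13.1%. Gaining windows start from a lower saline mean, and eligible windows with a saline mean of 10 to 55% (not drawn) have 14.7% for FOXA.

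In losing windows the shares of the other 13 strings were within 5 percentage points of that background. So was the share of FOXA (9.39% and 13.1%), which differed by fewer points than that of C/EBP. A difference in points is small for any rare string, such as NKX2, so this cut does not compare relative shares. C/EBP letters (TTGCNNAA) were in 39.5% of losing and 34.6% of the eligible windows of that saline range, IRF letters in 13.8% and 12.4%, STAT (TTCCNGGAA) in 3.81% and 3.26%, the letters AGATAAG of the GATA factors in 13.5% and 14.0% and NF-kappaB letters in 1.02% and 0.964%. NFAT (TGGAAAA) was in 22.2% and 23.7%, TEAD (ACATTCC) in 12.6% and 13.7%, an E-box of E2A (CAGCTGTT) in 5.10% and 6.02%, T-box (AGGTGTGA) in 3.70% and 4.87%, TCF/LEF (CTTTGATG) in 3.38% and 4.56%, SP/KLF (GGGGCGGG) in 4.24% and 5.59%, NKX2 (CCACTTGA) in 2.04% and 3.22% and ETS (ACCGGAAG) in 1.1% and 1.5%.

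PU.1 and RUNX letters together marked the highest share of losing windows. With a saline mean of 50 to 90%, 0.609% of windows with neither string lost methylation, 1.33% with RUNX alone, 1.89% with PU.1 alone and 3.96% with both. The shares fell with distance from the losing windows. PU.1 letters were in 19.1% of the windows with the largest drop in each region, in 14.9% and 15.2% of the eligible windows 1000 bp to either side and in 8.01% and 11.8% at 3000 bp. For RUNX the shares were 38.4%, then 29.7% and 28.2%, then 19.9% and 21.6%. The median drop of losing windows was 18 to 18.3 points in all 4 classes. Either string was in 955 losing windows (51.3%) and in 18 of the 39 losing windows of the pan-leukocyte list (46.2%). Of all eligible windows of that list 32.8% held either string. The excess of the strings was thus not particular to losing windows of that list.

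Whether Herb and OVA mice differed at these windows is a question the rule did not set directly, although it holds both groups below saline and so limits how far they can part. Herb methylation was higher than OVA methylation at 924 of the 1863 windows (49.6%) and lower at 939, with a median difference of -0.0301 points. Over all eligible windows it was higher at 49.1%, with a median difference of -0.0326 points, so the even split is not particular to the losing windows. By the likelihood ratio test, with thresholds of 0.01 for the adjusted p and 10 points for the pooled difference, 6 losing windows were higher (0.322%) and 4 lower (0.215%) in Herb mice. Over all eligible windows these shares were 0.887% and 0.698%. The counts turned on single mice, with 16 higher without OVA replicate 1, 13 lower without OVA replicate 3 or Herb replicate 3, and 1 lower without Herb replicate 4. Without OVA replicate 2 or Herb replicate 1, 9 and 10 were lower. This test leaves out the spread between mice. With that spread included, limma at an adjusted p under 0.05 called 0 of the 1863 windows, compared with 0.0592% of all eligible windows higher and 0.0228% lower, and 28 losing windows (1.5%) had an unadjusted p under 0.05 beside 9.78% of all. The F test with a scale factor called 0 of all eligible windows, and 7 losing windows (0.376%) had an unadjusted p under 0.05 beside 7.38% of all. In simulated data the F test called 105 of 200 changed windows without spread between mice and 0 with it. That spread was set at 1 value (a correlation of 0.01) and was not fitted to these mice. The share of changes this test would find here is therefore not known, and its count of 0 says little.

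The window higher in Herb mice by the most lay on chromosome 5 (64676001 to 64677000), with Gm3716 as nearest gene at 65801 bp. Saline mice had 60%, 66.7% and 79.4% there, OVA mice 28.0%, 33.3% and 20%, and Herb mice 55.9%, 55.2%, 57.8% and 37.8%. Herb and OVA mice did not overlap, and the pooled difference was 23.3 points (adjusted p = 0.00507 by the likelihood ratio test, 0.163 by limma, Benjamini-Hochberg over all eligible windows). The shallowest mouse had 24 calls. The window of Cd44 described above was the next, with a pooled difference of 16.5 points (adjusted p = 0.00419 by the likelihood ratio test and 0.329 by limma).

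The other windows higher in Herb mice that the naming rule gives lay in Sh3tc2, at Cdkl4 and near Pkdcc, with pooled differences of 11.7 to 13.4 points. The 4 lower windows were 2 overlapping pairs with the same calls, 1 upstream of Prdm2 and 1 in an intron of Plekhm3. At Prdm2, a histone methyltransferase gene, OVA mice had 70.6%, 75.3% and 76.0% and Herb mice 65.0%, 59.7%, 64.9% and 52.1%, below all OVA mice and farther from saline, with 90.5%, 95% and 85.5%. Its adjusted p was 0.00514 by the likelihood ratio test and 0.236 by limma.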

How the data were processed

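Lung DNA of 10 mice had been profiled by Methyl-seq. The deposited values are counts, without normalization, of CpG calls and of methylated and unmethylated calls per mouse in 1000 bp windows that start every 500 bp. According to the paper's methods the authors used Cutadapt for trimming, Bismark for alignment to mm10 and methylKit for window sums, while the submitters' processing notes name cutadapt 1.10, Bismark 0.19.0 and methylKit 1.0.0, which are not the versions the paper gives. Total calls were 306656737 to 410836272 per mouse. Percentages are 100 times methylated over all calls, group values are unweighted means over mice, and several calls can come from 1 molecule.

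Herb was set against OVA per window in a logistic model (likelihood ratio test, with no overdispersion term), with Benjamini-Hochberg adjustment over all 412413 eligible windows and the study's thresholds of 0.01 and 10 percentage points, and by limma 3.58.1 (R 4.3.3) on M-values, log2 of methylated over unmethylated calls after adding 1 to each. These were tested on simulated data: with spread between mice added, the likelihood ratio test also called many unchanged windows, limma missed many changed ones and the F test missed all of them. The added spread had 1 set size (a correlation of 0.01) that was not fitted to these mice, so these rates need not hold for them. Features came from 43783 RefSeq transcripts of GRCm38, and motif letters were searched with Python 3.11.15. The members, the 13 lists and the 17 motifs were chosen with earlier results of these data known. Windows were named by fixed rules: the 12 largest drops, the 8 largest at promoters, up to 4 genes of each list (1 is not reported here), up to 5 windows higher and 5 lower in Herb, the 3 nearest each side of the threshold, and the gene and regions with most windows. The labels do not say which mice shared a cage or a library batch. The mice of a group are separate animals in the study's design, and no library held the calls of another. Alternatives were other minimums of calls and points, pooled calls, merged regions, other promoter definitions, other tests, a replicate block and each mouse left out.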

Additional observations from a re-analysis of the deposited data

Results flagged for a closer look

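On chromosome X, which the rule leaves out, 2 of 9291 windows that passed the minimum of 20 calls met the same conditions, or 0.0215%, beside 0.452% on the autosomes. All exposed mice were below all saline mice at 1.96% of the chromosome X windows, beside 4.78% on the autosomes.

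In 3 of 69 sets of Herb values that were checked, 1 Herb mouse lay far from the other Herb mice, by the gap to its neighbour as a share of the range of the group, a check that flags about 1 in 20 groups by chance. Near Gm3716 Herb replicate 4 had 37.8% and the others 55.2% to 57.8% (share 0.870). In Fnbp1, Herb replicate 3 had 62.6% and the others 55.1% to 55.4% (0.972) at the window from 31061501, and Herb replicate 1 had 69.1% and the others 56.3% to 58.0% (0.872) at the window from 31062501. Over all losing windows the same gap was as wide at 79 (4.24%).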

How the results depend on the processing

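The number of losing windows was 6998 at a threshold of 10 points and 248 at 20, and 1201 as merged regions. With single mice left out it was 1648 to 2917, the highest without saline replicate 3, and a minimum of 50 calls gave 1660. The losing share of pan-leukocyte windows was 14.2% at 10 points and 0.733% at 20, beside 1.70% and 0.0601% of all eligible windows, and 3.91% to 6.11% without each mouse in turn. PU.1 letters were in 16.5% of the windows at 20 points, and RUNX letters in 36.5% at 10 points. By the midpoint of the window, 7.89% of losing windows lay in promoters.

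Windows higher in Herb than OVA numbered 0 and lower 0 by the F test, by limma at either threshold and by limma with the replicate block. A difference of at least 20 points left 1 higher and 0 lower. Leaving out each mouse gave 4 to 16 higher, the most without OVA replicate 1, and 1 to 13 lower, the fewest without Herb replicate 4. Windows lower in Herb rose to 9 without OVA replicate 2, 13 without OVA replicate 3, 10 without Herb replicate 1 and 13 without Herb replicate 3. With the replicate block in the likelihood ratio test 5 were higher and 2 lower. Same-numbered OVA and Herb mice correlated by 0.0800, 0.0222 and -0.0193 in their deviations from group means, so the numbers were not taken to pair the mice.

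Group means over the losing windows moved by under 1 SD in every alternative run, as did the drops of all 68 named windows in 748 alternatives. Most of the 748 left out a single mouse. Leaving out 1 of 3 or 4 mice cannot move a group mean by the SD of that group. For left-out mice the outcome was therefore largely fixed in advance and says little about robustness. The settings for the leukocyte and motif shares and limma with the replicate block were added after the data were seen. With 3 or 4 mice a group and a rule that needs all mice apart, the shallow windows with wide saline values limit what single drops show.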
